A study of Drosophila melanogaster with 2 samples.

Results

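The 10 genes described here are Mef2 and 9 genes of the muscle contractile apparatus: Mhc, Mlc2, Act57B, Tm1, Tm2, up, wupA, sls and bt. They were taken by name from the Ensembl annotation, 10 of 13945 protein-coding genes, and a peak was assigned to a gene when its summit lay in the gene body or within 10 kb of it. The data are chromatin immunoprecipitation and sequencing (ChIP-seq) of vvl-eGFP, a fusion of the POU-domain transcription factor Ventral veins lacking to a green fluorescent protein, from whole Drosophila melanogaster embryos aged 0 to 24 h. Both samples, biological replicates 1 and 2, come from the strain vvl-GFP, form 1 group and were precipitated with an antibody against GFP. They are labelled as coming from separate biosamples, so the difference between them includes that between collections. Sex was not collected. The labels describe flies with an insertion targeting vvl and do not say whether the fusion adds a copy of the gene, and no control sample was used here. A whole embryo mixes all tissues, so strong binding in few cells and weak binding in many cannot be told apart, and a peak list does not show whether the bound cells were muscle.

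Muscle fibres are built of sarcomeres, in which myosin thick filaments slide along actin thin filaments. Tropomyosin and the troponin complex on the thin filament make this movement depend on calcium, and giant elastic proteins related to titin tie the thick filaments to the ends of the sarcomere. Mef2, a MADS-box transcription factor, is known as the general activator of these structural genes in the differentiating muscle of the embryo. Vvl is known mainly from the tracheal system, glia and neurons, where it acts through POU sites such as the octamer ATGCAAAT.

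vvl-eGFP peaks were unevenly spread over the 10 genes. The main peak list is the authors' conservative list for both replicates, with 8309 peaks, and 21 of its summits lay in the windows of 7 of the 10 genes. Among all protein-coding genes, 74.0% had a summit in such a window, so the 7 of 10 lay near the background. The 21 summits were divided unequally: 10 were at Mef2, 4 at Mlc2, 2 each at Tm1 and Tm2, and 1 each at Mhc, Act57B and sls. No conservative summit lay in the windows of up, wupA or bt. Windows differ in length, and per 10 kb of window Mlc2 had 1.73 summits, Mef2 1.53, Tm2 0.8 and the other 7 genes at most 0.446. Inside a gene body there were 6 summits, and all of these were in Mef2, so 1 of the 10 genes had a summit in its body, against 17.4% of all protein-coding genes. Peak signal, the authors' own value for the height of a peak, ran between 77.9 and 960.4 for the 21 peaks with a median of 167.3, beside a median of 141.3 for the whole list.

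**Figure D1:**
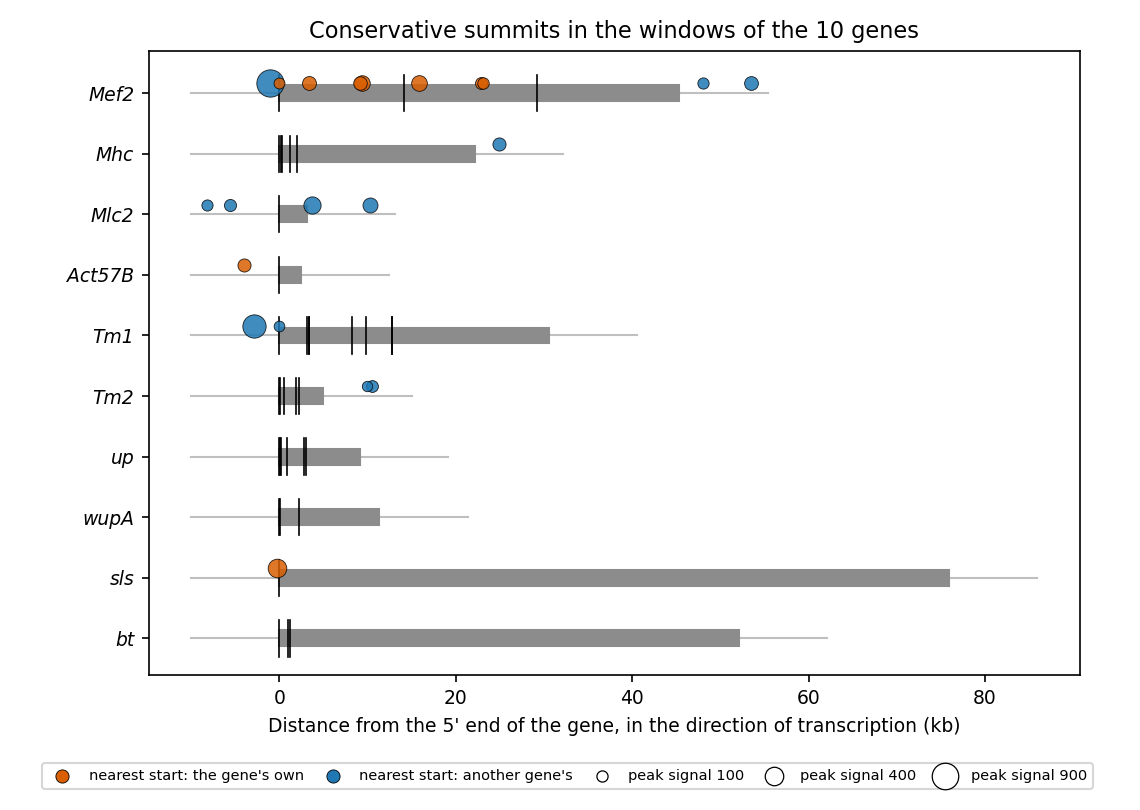
Positions of the 21 conservative summits (circles, area by peak signal) relative to the 5' end of each gene, in kb in the direction of transcription. Grey bars are gene bodies, thin lines the 10 kb on each side and black ticks the annotated starts. Mef2 has 10 summits, 6 of them in its body, and up, wupA and bt have none.

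Most summits beside the contractile genes were at the starts of neighbouring genes. The annotated transcription start nearest to the summit belonged to the gene itself for 9 of the 21 summits, of which 7 were at Mef2, 1 at Act57B and 1 at sls. These are 3 of 10 genes, beside 29.3% of all protein-coding genes. Of the 21 summits, 11 lay within 500 bp of some start, beside 45.9% of all conservative summits, and only 2 of these 11 had a start of the gene itself as the nearest. The other 9 were nearest to Etf-QO, Pal1, CG17928, Cp190, MRG15, CG6276, ear, Rsod and Bet5. Mef2, Tm1 and sls had a summit within 500 bp of an own start, again 3 of 10, beside 28.7% of all genes. Of the 36 distinct starts of the 10 genes, 3 had such a summit, beside 26.7% of all starts of protein-coding genes; starts of the same gene often share 1 promoter region and are not independent.

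At Mef2 the summits spread over the introns and the first start. The gene (FBgn0011656, 2R:9913496-9958858, minus strand) had 10 summits in a window of 65363 bp, or 1.53 per 10 kb, against 0.633 per 10 kb over the whole arm. Of 698 protein-coding genes with windows of 48.6 to 1990 kb, 13.5% had at least 10 summits, and their median was 4. This class holds the longest windows, so its genes differ widely in length. Replicate 1 had 8 thresholded summits in the Mef2 window and replicate 2 had 9, but these were not all the same peaks. In replicate 2 the summits at 2R:9903692, 2R:9903895 and 2R:9954756 belong to peaks that overlap no conservative peak.

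The highest of the Mef2 peaks is also a promoter peak of another gene. It lies at 2R:9959741-9960094, with a signal of 960.4 and rank 113 of 8309. Its summit is 171 bp from the start of Pal1, which encodes an enzyme of peptide amidation, and 1049 bp upstream of the first Mef2 start. The peak's summit in replicate 2 was nearest to the start of Pdrg1, 169 bp away, so the peak cannot be assigned to Pal1 alone. In the replicates' own ranked lists its signal was 554.5 in replicate 1, rank 108 of 73622, and 412.5 in replicate 2, rank 141 of 90260. A separate and much lower summit lay 66 bp from that Mef2 start, at 2R:9958726-9959121. Its signal was 92.2 in the conservative list (rank 6983), 69.4 in replicate 1 and 46.0 in replicate 2. The irreproducible discovery rate (IDR), which measures how well a peak keeps its rank between 2 rankings, had a −log10 of 2.79 for this peak in replicate 1 and 1.62 in replicate 2. A −log10 of 2 is the authors' threshold, so the peak at the first Mef2 start passed in replicate 1 and not in replicate 2.

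The summits within the Mef2 body lay 1783 to 6372 bp from the nearest of its 3 starts, 5 in introns and 1 in an annotated 5' UTR. The peak in the UTR, 2R:9942896-9943075, was the highest of them with a signal of 269.8 (rank 1425). It had 96.2 in replicate 1 and 180.2 in replicate 2, with a −log10 IDR of 3.18 in replicate 1 and 5.0 in replicate 2. A pair of intronic peaks lay side by side at 2R:9949340-9949507 and 2R:9949585-9949789. The first had a signal of 261.9, with 140.3 in replicate 1 and no summit within 100 bp in replicate 2, where the nearest thresholded peak overlaps it with a summit farther away. The second had 182.9, with 78.7 in replicate 1 and 91.6 in replicate 2, and passed the IDR threshold in both. The intronic peak at 2R:9955444-9955598 had 196.8, with 135.4 in replicate 1 and 77.0 in replicate 2, and also passed in both.

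The other Mef2 peaks had weaker support. An overlapping pair of intronic peaks lay 6151 and 6372 bp from a start, with signals of 110.3 and 126.7. Both overlapped the same thresholded peak of replicate 1, whose summit matches the first, and none of replicate 2. The second passed in neither replicate, with a −log10 IDR of 1.06 in replicate 1 and 0.18 in replicate 2. In the broader list of the series, which is derived from the alignments of both replicates too, the second of this pair was not listed. Downstream of the gene, a peak 926 bp from the start of the neuropeptide gene FMRFa had 191.5, with 141.0 in replicate 1 and 34.3 in replicate 2, where its −log10 IDR was 0.26. The last, 76 bp from the start of Etf-QO, a gene of mitochondrial electron transfer, had 103.2 and passed in replicate 2 only. The start with the most annotated Mef2 transcripts, 8, at 9929615, had no conservative summit within 500 bp, and its highest ranked peak had a signal of 59.7 and a −log10 IDR of 1.45.

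The genes of the thick filament had no conservative summit at their own starts. Mhc, the muscle myosin heavy chain (FBgn0264695, 2L:16766566-16788766, plus strand), had 1 summit in its window, at 2L:16791243-16791638. It lay 2675 bp beyond the 3' end of Mhc and 127 bp from the start of CG17928. Its signal was 167.3 (rank 3226), with 112.5 in replicate 1 and 42.7 in replicate 2, and it passed the IDR threshold in both. At the 5 starts of Mhc the highest ranked peak had a signal of 55.7 and a −log10 IDR of 1.04, with 32.4 in replicate 1 and 18.8 in replicate 2. Among 697 protein-coding genes with windows of 34.6 to 48.6 kb, 84.1% had at least 1 summit and the median was 3.

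Mlc2, the regulatory light chain of muscle myosin (FBgn0002773, 3R:30171438-30174551, minus strand), had 4 summits in a window of 23114 bp. Of 699 genes with windows of 22.8 to 23.4 kb, 21.2% had as many. None of the 4 had Mlc2 as its nearest start. The highest, 3R:30170721-30170953, lay 598 bp past the 3' end of Mlc2 and 367 bp from the start of Rsod, with a signal of 338.8 (rank 958), and had 193.7 in replicate 1 and 138.7 in replicate 2. The next, 3R:30164179-30164339, was intergenic, 7196 bp downstream of Mlc2, with a signal of 238.3, and had 147.8 in replicate 1 and 82.8 in replicate 2. Upstream of Mlc2 were a promoter peak of Bet5 with a signal of 130.8 (59.7 in replicate 1, 61.1 in replicate 2) and an intergenic peak 8194 bp away with 101.4 (63.1 in replicate 1, 40.8 in replicate 2). The first 3 passed the IDR threshold in both replicates, and the last passed in neither alone. At the Mlc2 start itself the highest ranked peak had a signal of 35.0 and a −log10 IDR of 0.71.

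Each of the 4 summits in the Mlc2 window had a POU word within 100 bp. The words sought were the octamer ATGCAAAT, the related ATGCTAAT and the variant ATGCATAT, on both strands. At least 1 of the 3 lay near 6 of the 21 summits, beside 11.3% of all conservative summits: 4 of 4 at Mlc2 and 2 of 17 at the other genes, these 2 with ATGCTAAT in the Mef2 window. The octamer itself was near 2 of the 21, beside 6.68% of all summits. The numbers are small, no test was made, and a word is not evidence that it is bound. The sequences of the 4 Mlc2 windows follow because the words stand at different distances from the summits. They are 201 bases centred on each summit, plus strand of the Release 6 (dm6) assembly, with the POU, homeodomain, GAGA and ACACTG words in capitals, also where they read on the other strand.
Mlc2 peak near Rsod, 3R:30170740-30170940: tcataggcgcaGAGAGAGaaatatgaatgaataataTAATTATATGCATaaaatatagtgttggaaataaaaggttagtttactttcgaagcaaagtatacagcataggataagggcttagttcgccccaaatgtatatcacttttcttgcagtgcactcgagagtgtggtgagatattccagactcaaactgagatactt
Mlc2 downstream intergenic peak, 3R:30164142-30164342: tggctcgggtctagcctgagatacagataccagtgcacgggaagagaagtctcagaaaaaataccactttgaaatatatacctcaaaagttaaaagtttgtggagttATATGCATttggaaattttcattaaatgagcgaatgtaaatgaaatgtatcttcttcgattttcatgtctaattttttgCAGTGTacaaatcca
Mlc2 upstream peak at Bet5, 3R:30180098-30180298: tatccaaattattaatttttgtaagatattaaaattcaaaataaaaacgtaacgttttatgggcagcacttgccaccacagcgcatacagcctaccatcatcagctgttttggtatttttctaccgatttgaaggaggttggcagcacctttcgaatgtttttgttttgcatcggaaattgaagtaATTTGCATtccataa
Mlc2 upstream intergenic peak, 3R:30182645-30182845: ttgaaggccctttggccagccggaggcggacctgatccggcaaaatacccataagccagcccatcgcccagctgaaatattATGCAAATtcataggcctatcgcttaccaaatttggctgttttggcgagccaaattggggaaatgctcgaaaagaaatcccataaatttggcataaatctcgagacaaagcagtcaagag

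In the intergenic peak upstream of Mlc2 the octamer begins 19 bases before the summit, and at the Bet5 peak it begins 86 bases after it. ATGCATAT, read on the minus strand, begins 7 bases after the downstream intergenic summit in plus-strand positions. Near Rsod it begins 59 bases before the summit and shares its first base with the last of the homeodomain word TAATTA. That window also holds GAGAGAG, beginning 89 bases before the summit. Of the POU words, the one nearest to its summit thus belongs to the second highest of the 4 peaks, and the octamer to the lower 2 by signal.

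At the tropomyosin genes Tm1 and Tm2, which lie next to each other on 3R, the conservative peaks were at the edges of the pair. Tm1 (FBgn0003721, 3R:15278220-15308779, plus strand) had 2 summits. The higher, 3R:15275200-15275555, had a signal of 678.2 (rank 242). It lay 128 bp from the start of Cp190, which encodes an insulator protein, and 2851 bp upstream of Tm1. In replicate 2 its summit was nearest to the start of CG4338, 123 bp away, so this peak cannot be assigned to Cp190 alone. Its signal was 367.0 in replicate 1 and 307.3 in replicate 2. The other, 3R:15277951-15278346, lay between the divergent starts of Tm1, 71 bp away, and MRG15, a chromatin protein gene, 40 bp away. It had a signal of 86.6 (rank 7311), with 56.2 in replicate 1 and 37.3 in replicate 2, and passed the IDR threshold in replicate 1 only. Because a single summit serves both starts, it cannot be assigned to either gene. Its window is shown as the one shared start region among the members, in the same form as above; it holds TAATTA and no POU word.
Tm1 and MRG15 start region, 3R:15278049-15278249: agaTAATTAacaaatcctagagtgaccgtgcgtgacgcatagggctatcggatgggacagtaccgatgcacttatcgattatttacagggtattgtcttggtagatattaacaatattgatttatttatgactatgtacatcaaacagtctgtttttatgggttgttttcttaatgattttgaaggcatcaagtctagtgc

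Within the Tm1 body, 3 further peaks passed the IDR threshold in the series' ranked list but are not among the thresholded peaks. The first, 3R:15287715-15288110, has its summit 99 bp from an internal Tm1 start, a signal of 145.3 and a −log10 IDR of 3.04. It had 68.7 in replicate 1 and 73.2 in replicate 2 and passed in both replicates' ranked lists. The second, 3R:15291986-15292087, had 127.5, with 82.3 in replicate 1 and 52.1 in replicate 2, and passed in both as well. The third, 3R:15292315-15292710, had 71.7 and no summit within 100 bp in replicate 1. With these, Tm1 would hold 5 summits in place of 2. Over the whole series, 184 of 8493 passing ranked peaks are not in the conservative list. The text accompanying the files names 1 more source file for the thresholded than for the ranked lists and does not describe it. The replicates' thresholded lists also lack passing ranked peaks in this part of Tm1. In replicate 1 these included summits at 3R:15286912 (−log10 IDR 2.25) and 3R:15290684 (3.98), and in replicate 2 at 3R:15287909 (3.67). The lack of conservative summits inside Tm1 is therefore not evidence of absent binding, and its reason was not tested. The broader list does have summits in the Tm1 body, at 3R:15305469 (signal 70.3) and 3R:15305683 (17.8). The peak with the highest signal near a Tm1 start in the ranked list, 174.6, had a −log10 IDR of 1.69 for the series, but 3.98 in replicate 1 with a signal of 145.8 and 1.53 in replicate 2 with 25.4.

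Tm2 (FBgn0004117, 3R:15310193-15315197, plus strand) had 2 conservative summits, both downstream of the gene and at the starts of CG6276 (81 bp away, signal 77.9) and ear (95 bp away, signal 122.4). The summit at CG6276 had 50.9 in replicate 1 and 31.9 in replicate 2, and that at ear had 67.4 in replicate 1 and 53.0 in replicate 2. Only the ear peak passed the IDR threshold in both replicates, the CG6276 peak passing in replicate 1. At the Tm2 starts the highest ranked peak had a signal of 61.8 and a −log10 IDR of 1.69. In the replicates the highest there had 42.6 (1.33) in replicate 1 and 29.6 (1.16) in replicate 2, so none of the 3 passed. The series peak is, however, among those of the broader list, 193 bp from a Tm2 start. The broader list gave 7 summits for Tm1 and 6 for Tm2, and 4 of these were shared because the windows overlap.

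The giant proteins differed from each other. The gene sls, which encodes the titin-related spring Sallimus (FBgn0086906, 3L:2039681-2115611, minus strand), had 1 summit, and it was a promoter peak of its own. This peak, 3L:2115774-2116003, lay 267 bp upstream of the single annotated start, shared by 13 transcripts, with a signal of 409.0 (rank 663). Its signal was 186.3 in replicate 1, rank 1073 of 73622, and 219.9 in replicate 2, rank 505 of 90260, and it passed the IDR threshold in both. It was the only one of the 21 peaks within 500 bp of an own start that did so. Its window is shown in the same form for that reason; none of the 11 words sought is in it.
sls promoter peak, 3L:2115778-2115978: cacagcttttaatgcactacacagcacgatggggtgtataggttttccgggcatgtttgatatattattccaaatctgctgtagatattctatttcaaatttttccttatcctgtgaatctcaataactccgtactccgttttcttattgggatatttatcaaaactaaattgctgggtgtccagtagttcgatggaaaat

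Beyond that peak the sls window held little. Replicate 2 alone had 1 more thresholded peak, 1546 bp upstream of the start with a signal of 46.4. The window of 95931 bp held 13 peaks of the series' ranked list, which has no threshold, or 1.36 per 10 kb, against 5.93 per 10 kb over the arm. The counts were 7 in replicate 1 and 41 in replicate 2, so the replicates differed here. Of the 698 genes with the longest windows, 18.5% had a density in the series' ranked list at or below that of sls. Coding sequence makes up 73.0% of the sls body, and of the 698 longest genes 0.287% had as much. Of all conservative summits, 0.313% were classed as in coding exons. Summits within 500 bp of a start or in a UTR were classed as such first, so this is not the full share in coding sequence. In the 7 of these long genes with at least 50% coding sequence, the median was 2.53 ranked peaks per 10 kb, beside 6.17 in all 698. These 7 include sls and bt themselves, and their median of 4 conservative summits equals that of all 698. Whether coding sequence plays a part in the low count was not tested.

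The gene bt encodes projectin, a giant kinase related to titin (FBgn0005666, 4:724400-776474, plus strand), and had no peak at all in the thresholded lists. Its window of 72075 bp held 0 ranked peaks of the series, 0 of replicate 1 and 2 of replicate 2. Chromosome 4, which is small and largely heterochromatic, had 39 ranked peaks in the series' list, or 0.289 per 10 kb. Its ranked peaks were 122 in replicate 1 and 39 in replicate 2. A conservative summit was in the window of 15 of its 80 protein-coding genes, or 18.8%. The lack of conservative summits at bt therefore cannot be told apart from the low listing of its chromosome. In bt, 51.7% of the body is coding.

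On the thin filament, the actin gene and the troponin genes had little or nothing. Act57B (FBgn0000044, 2R:20944021-20946431, plus strand), an actin of embryonic and larval muscle, had 1 intergenic summit at 2R:20939796-20940191, 4027 bp upstream of its only start. The signal was 165.7 (rank 3270), with 104.9 in replicate 1 and 53.8 in replicate 2, and it passed the IDR threshold in both. The homeodomain word TAATTA was within 100 bp of this summit and no POU word was. At the Act57B start the highest ranked peak had a signal of 41.7, while the broader list holds an intronic peak with 74.7, 797 bp from the start.

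The gene up encodes troponin T (FBgn0004169, X:13593474-13602578, minus strand) and wupA troponin I (FBgn0283471, X:18105568-18116922, minus strand). Of 697 genes with windows like that of up, 15.8% had no summit, and the share was 15.8% in the length class of wupA too. In the broader list each had 1 summit, for up at the start of Ndc80, a kinetochore gene, with a signal of 71.4, and for wupA 33 bp from the start of Mvb12, with 86.2. The Mvb12 peak was also in the list of replicate 1. At the starts of up the highest ranked peak had a signal of 44.6 in the series' list, with its summit at X:13602615. The highest there had 31.0 in replicate 1, and 9.1 in replicate 2 at a separate summit, X:13602422. At those of wupA the highest had 37.3 in the series' list and 17.1 in replicate 1. In replicate 2 the highest had 25.1 and lay at another wupA start, while 16.5 was listed at the start of the series peak. None of these 6 highest peaks had a −log10 IDR above 0.66.

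**Figure D2:**
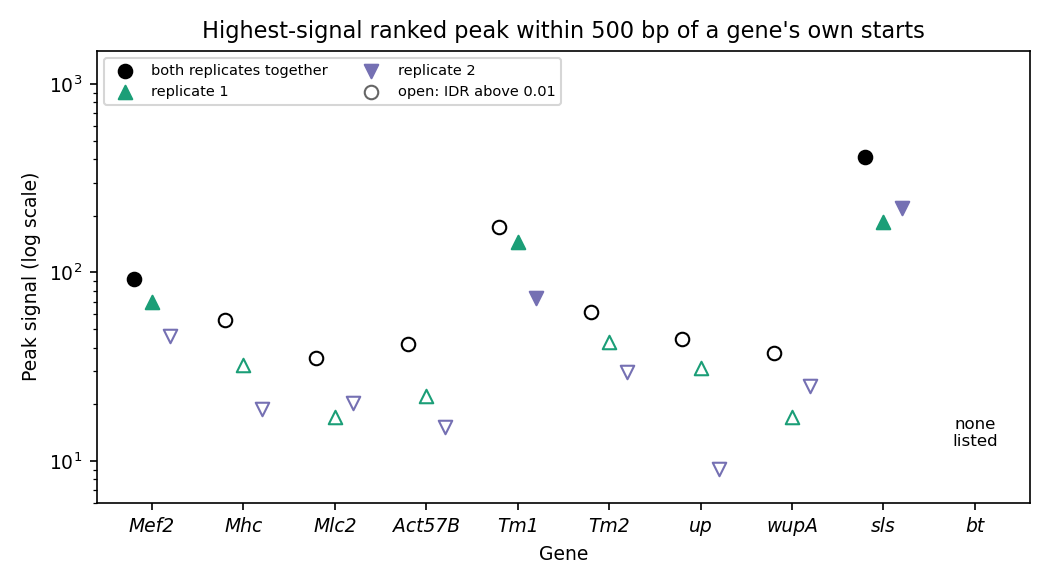
Highest-signal ranked peak within 500 bp of any own start of each gene, in the series' list and in each replicate, on a log axis of peak signal, for both replicates together (circles), replicate 1 (upward triangles) and replicate 2 (downward triangles); filled symbols passed an IDR of 0.01. For sls the values are 409.0, 186.3 and 219.9, all passing, and for Mhc, Mlc2, Act57B, Tm2, up and wupA no value passed.

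Set side by side, the own starts of 3 genes had ranked peaks that passed the IDR threshold for the series. The sls peak passed in the series and in both replicates, and so did the peak with a signal of 145.3 at the internal Tm1 start, which is not in the conservative list. At Mef2 and Tm1 the first start had a low peak in the conservative list that passed in replicate 1 only. At the other 7 genes the highest-signal ranked peak at an own start did not pass in the ranked lists of the conservative set or of either replicate, or there was none. The Tm2 peak is in the broader list all the same. In all, 9 of the 10 genes had at least 1 ranked peak there, bt being the exception. Low-ranked peaks are plentiful, 81948 in the series' list, so their presence at a start says little.

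Most of the 21 peaks were listed in both replicates: 19 had a summit within 100 bp in both ranked lists, beside 87.8% of all conservative summits, and 13 overlapped a thresholded peak of both replicates, beside 62.4%. The list of replicate 1 overlapped 19 of the 21 and that of replicate 2 overlapped 14. In the thresholded lists, 8 of the 10 genes had a summit in replicate 1 and 7 in replicate 2, beside 73.9% and 73.6% of all protein-coding genes. In the broader list it was 9 of 10, beside 80.4%, with bt the gene that had none. That list holds 10 summits in these windows that overlap no conservative peak, and 7 of these 10 were at promoters. Signals are on each list's own scale. Replicate values are shown side by side without rescaling, and differences between them were not tested.

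**Figure D3:**
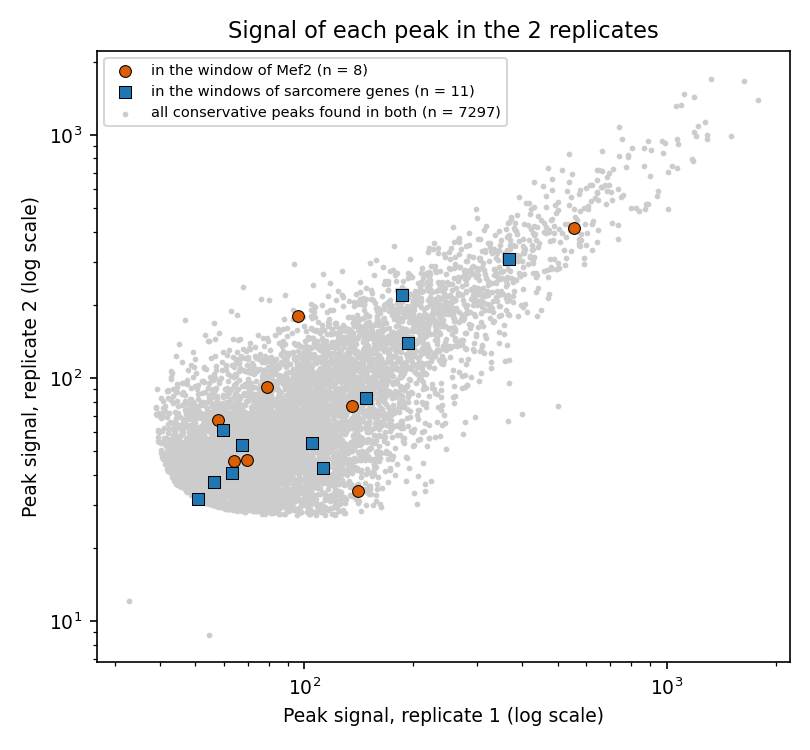
Peak signal of each conservative peak in replicate 1 (horizontal) and replicate 2 (vertical), both on log axes, for peaks with a summit within 100 bp in both ranked lists: 8 at Mef2 (circles), 11 at the sarcomere genes (squares) and all 7297 (grey). The Pal1 peak at Mef2 and the Cp190 peak at Tm1 are high in both, and the FMRFa peak has 141.0 in replicate 1 and 34.3 in replicate 2.

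Other words were sparse. TAATTA was near 3 of the 21 summits, at Act57B, Mlc2 and Tm1, beside 15.6% of all summits. ACACTG, a word not assigned here to any factor, was near 3, at Mef2 and Mlc2, beside 17.5%. The GAGA word GAGAGAG was near 2, beside 5.98%. The Twist E-box CATATG was near 1 of the Mef2 summits, beside 7.35%, and GGTCACAC, the word of the promoter factor M1BP, was near the Mef2 start peak, beside 3.02%. The MEF2 consensus was near none of the 21, beside 0.662% of all summits, and TACGTG and TATCGATA were near none either.

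Related muscle genes were counted in 3 lists in the same way. Of 25 other sarcomere genes, 18 had a summit in the window and 7 within 500 bp of an own start. The 7 were tmod, Fhos, Msp300, Actn, Strn-Mlck, RyR and sals, with signals of 324.3, 568.0, 396.1, 180.6, 109.6, 91.7 and 76.0 for the highest peak at an own start. In the window of Fhos that peak was also the highest, while Msp300 had a higher one of 543.4, 604 bp from its start. The highest peaks in the windows of Strn-Mlck (1904.3) and Actn (996.6) were nearest to the neighbours CG8320 and moody. Of 20 muscle regulators, 16 had a summit and 5 had one at an own start: tin (921.0), Poxm (284.9), lbe (218.4), stumps (171.6) and htl (71.4). Other high peaks in that list were in the windows of zfh1 (671.2), lbe (471.2, nearest to lncRNA:CR44089) and bap (427.8). All 13 myoblast fusion genes had a summit in the window and 7 had one at an own start: mbc (321.7), WASp (265.9), kirre (177.5), siz (167.5), Vrp1 (164.3), rst (100.4) and rols (85.1). The highest peaks in the windows were those of mbc (785.3, nearest to tst), kirre (532.0, among 35 summits), siz (335.6) and sing (326.5, nearest to Septin4). The median number of summits per gene was 1 for the 10 genes, 2 for the other sarcomere genes, 3 for the regulators, 3 for the fusion genes and 2 for all protein-coding genes. Among all protein-coding genes, 74.0% had a summit in the window and 28.7% had one at an own start. The related lists stood further from all genes in summits whose nearest start was the gene's own. Such a summit was found for 60.0% of the other sarcomere genes, 55.0% of the regulators and 61.5% of the fusion genes. The share was 30.0% of the 10 genes and 29.3% of all protein-coding genes. Median windows were 36.8 kb for the 10 genes and 22.2 kb for all. They were 29.8 kb for the other sarcomere genes, 26.7 kb for the regulators and 39.9 kb for the fusion genes. Of all genes with windows of 34.6 to 48.6 kb, 84.1% had a summit, with a median of 3. The lists were not adjusted for length.

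**Figure D4:**
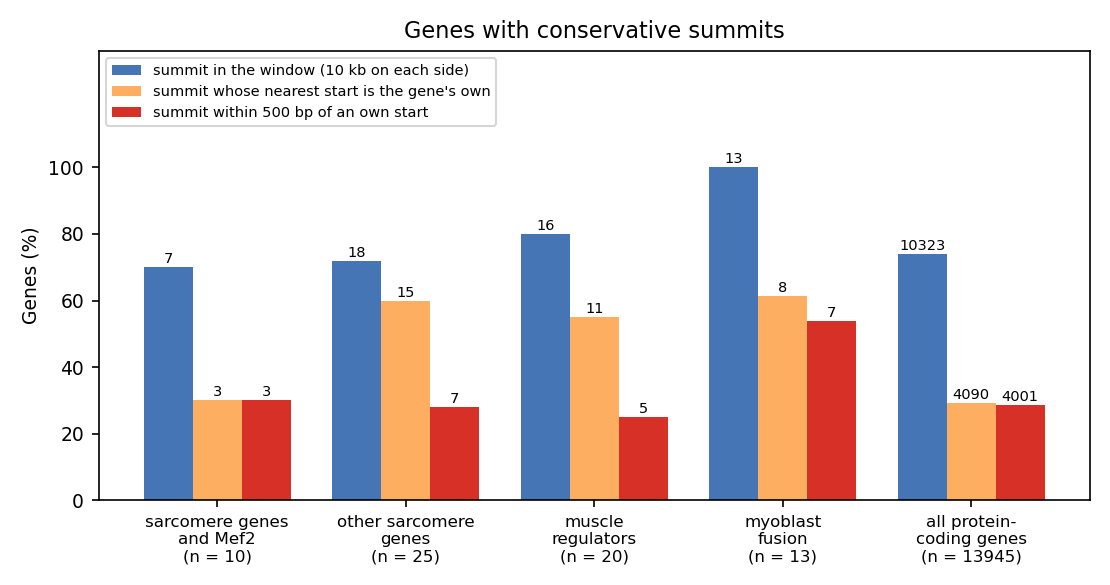
Percent of genes with a conservative summit in the window, with a summit whose nearest start is their own, and with a summit within 500 bp of an own start, for the 10 genes, 3 lists of related muscle genes and all protein-coding genes; numbers above bars count genes. The 10 genes, with 70.0%, 30.0% and 30.0%, lie close to all genes, with 74.0%, 29.3% and 28.7%. For summits whose nearest start is their own, the related lists have 60.0%, 55.0% and 61.5%.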

How the data were processed

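The authors deposited 8 lists of peaks (dm6), 4 thresholded and 4 ranked: a conservative and a broader pair for the series and a pair for each of 2 replicates. Per the labels, chromatin was sonicated to 200 to 800 bp. Which aligner and peak caller made them is not given in the sources used here. Per the accompanying text files, the series' lists derive from both replicates' alignments. Each deposited list gives the authors' signal and score per peak and a summit offset, and the deposited ranked lists add the −log10 IDR. The lowest score in the deposited thresholded lists was 830. Peak lists carry no read counts, so depth is unknown.

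Summits were assigned to gene bodies with 10 kb on each side, to the nearest annotated start of any gene except transposable elements, and to words within 100 bp. The annotation was Ensembl release 115 and the sequence the Release 6 assembly, both on dm6 coordinates, on 6 arms. Replicate values are those of the nearest summit within 100 bp in each ranked list. For the highest ranked peaks at own starts they are the highest of each list within 500 bp, which may be different peaks. Length classes are 20 equal parts of protein-coding genes by window. No test was made: there is 1 group, and genes are not replicates. The members and lists were chosen with earlier results of these data known. The text names all 10 genes, the genes with the nearest starts, and genes from each list. From each list these are the 4 genes with the highest-signal summit and those with a summit at an own start. The genes nearest only to summits of peak lists other than the conservative one were added after their values were seen. Another symbol of the lists was not used here. Counting was checked on simulated peaks. Python 3.11.15, pandas 2.3.3 and numpy 2.4.6 were used. Alternatives were other lists, windows and distances.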

Additional observations from a re-analysis of the deposited data

How the results depend on the processing

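Window size and threshold changed the counts most. Against 7 genes and 21 summits with 10 kb on each side, of which 11 were at promoters, gene bodies alone gave 1 gene, 6 summits and 0 at promoters. With 2 kb the counts were 4, 11 and 5, and with 20 kb there were 32 summits, 21 at promoters. The 4154 highest-signal peaks gave 12 summits, 5 of them at promoters, and 1 gene with a summit at an own start, against 3. In the broader list 18 summits were at promoters. Using 1 replicate's list gave 1 to 3 genes with a summit at an own start, 7 to 8 genes with a summit, 18 to 20 summits and 9 to 12 at promoters. The gene kept in replicate 2 alone was sls. Octamers within 50 bp of a summit were 1, against 2. The median rank of the summits, in percent from the top of the list, was 38.8; it was 52.2 with 20 kb, 55.3 in the broader list and between 38.1 and 53.1 in the replicates. The cause of these changes was not tested, beyond fewer or more peaks being counted by construction. With the passing ranked peaks, an alternative chosen after seeing the data, the count was 24 summits. For single genes, 68 of 100 alternatives stayed within 1.5 times the count. These include counts of 0 that stayed 0, as in every alternative for bt, so they say less about genes with peaks. Peak lists give no depth, so a missing peak is not evidence of absent binding. No paired analysis was possible because there is 1 group.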
